A study of Rattus norvegicus with 51 samples.

Results

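Neonatal rat ventricular myocyte tissues on an isotropic fibronectin coating were compared after 24 h of cyclic stretch and after 24 h without it. Myocytes spread on such a coating with no imposed direction, in contrast to the aligned tissues that form on micropatterned fibronectin. The comparison holds 6 of the series' 51 arrays, 3 stretched and 3 unstretched, chosen by their labels alone. Each group holds 1 tissue from each of the primary cell harvests 1, 2 and 4, so every stretched array has an unstretched partner from its own harvest. The cells were primary ventricular cells of Sprague-Dawley rats, seeded on silicone membranes, kept 1 h without movement and then stretched or not, in M199 medium with 10% foetal bovine serum. All 6 arrays carry total RNA, and no group has a genetic change or a drug. The stretch amplitude and rate, the exact age of the pups and the number of animals in a harvest are not stated in the labels. The other arrays are those of aligned tissue stretched along or across its axis, of isotropic tissue at 6 h and 96 h, and of 6 freshly attached tissues at 0 h. Signals are log2 values, so that a difference of 1 is a 2-fold change.

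Heart muscle cells sense load through integrins and focal adhesions on their outside and through the Z disc and titin on their inside, and both routes act on gene expression through serum response factor, YAP and other regulators. Neonatal myocytes under load typically thicken their contractile apparatus and make more of the genes of the foetal programme, among them the natriuretic peptides. Cells of the heart also carry an innate immune programme: type I interferon signals from its receptor through cytoplasmic factors, among them STAT2 and IRF9, to a shared set of antiviral genes, and cytokines of the interleukin 6 family signal through the common receptor chain gp130 (Il6st), the kinase Jak2 and the factor Stat3 to acute phase genes.

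Before the results, 1 array of the comparison needs a remark. On a line drawn through all genes from the mean of the other 24 h isotropic arrays (0) to that of the other 96 h isotropic arrays (1), the stretched array of harvest 1 lay at 0.897. The remaining 5 arrays of the comparison lay between 0.000259 and 0.147. The 96 h unstretched array of harvest 1 lay at 0.196, against 0.799 to 0.993 for the remaining 96 h arrays. In the authors' deposited table of fold changes against 0 h, 13 of the 15 columns were the differences of group means as labelled to within 0.001. The columns of the 24 h isotropic stretched and 96 h isotropic unstretched groups differed from them by up to 1.98 on the log2 scale, and all 15 columns in the authors' deposited table were matched, to within 3.33e-08, with these 2 arrays exchanged. Every result below is therefore given as labelled. The total counts, many counts by list, many calls and some of the largest changes are also given in 2 other ways. These are with the 2 arrays exchanged and without the stretched array of harvest 1. Together with the labelled form they are called the 3 arrangements.

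**Figure D1:**
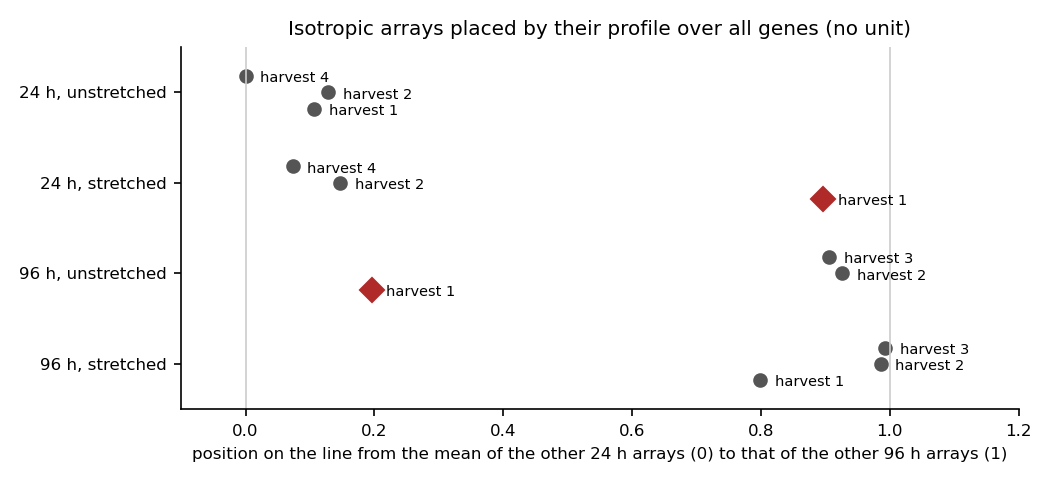
Position of the 12 isotropic arrays of 24 h and 96 h (points, 1 per array, with the harvest) on the line between the 2 time points, each placed without itself and without the 2 diamonds. The 24 h stretched array of harvest 1 sits at 0.897 among the 96 h arrays, and the 96 h unstretched array of harvest 1 at 0.196 near the 24 h arrays.

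The tissue carried the markers of its label. The 12 cardiomyocyte markers, contractile and calcium handling genes, had a mean log2 signal of 11.18 to 11.24 in the unstretched and 10.85 to 11.28 in the stretched arrays, where the highest signal of any array was 13.56. Signals of fibroblast, endothelial, macrophage and red cell genes were present too, as described below. No pair of these arrays held identical values, and correlations between arrays over all genes were 0.972 to 0.995.

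More genes fell than rose with 24 h of stretch. Of 18829 genes tested with limma, with harvest as a term and 1 estimate of the spread for all 51 arrays, 746 passed an adjusted p of 0.05 (3.96%), of which 187 were higher (0.993% of all genes) and 559 lower (2.97%). With the 2 arrays exchanged 1546 passed (8.21%), with 578 higher and 968 lower, and without the stretched array of harvest 1 942 passed (5%), with 283 higher and 659 lower. In all 3 arrangements 455 genes passed (2.42%), 98 higher and 357 lower. The counts by list below are to be read beside these shares of all genes, each in its own arrangement. Leaving out the unstretched array of harvest 1 left 268 genes, and leaving out the stretched array of harvest 4 gave 1132. Without the harvest term 342 genes passed, and with the spread taken from the 24 h arrays of the series in place of all 51 arrays 78 did. A limma fit to the 6 arrays alone called 0, with 1340 genes at an unadjusted p under 0.05, so the calls rest on a spread shared with the other groups. When quantile normalization was repeated the total was 774, with 308 higher and 466 lower, so the share of higher genes among those that passed was larger. The median change over all genes was 0.0044, and 115 of the 746 changed at least 2-fold, 21 upward and 94 downward. As labelled, stretched and unstretched arrays did not overlap at all for 2051 genes (10.9% of those tested), 505 of them among the 746. With 3 arrays a group such separation is common, so for a single gene below it describes the signals and is not a test. Over the 455 genes that passed in all 3 arrangements, the median size of the change was 0.64 in harvest 1, 0.89 in harvest 2 and 0.43 in harvest 4.

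The 10 largest rises among named genes that passed with the same sign in every harvest in all 3 arrangements were those of Casq1, Slc7a3, Adamts8, Xirp2, Gdf15, Fstl3, Cnn1, Pkp1, Il11 and Pmepa1, between 1.19 and 1.82 on the log2 scale. They code for a calsequestrin, an amino acid transporter, a secreted protease, a filament-binding protein, a stress cytokine, an inhibitor of activin, a smooth muscle actin-binding protein, a desmosome protein, a cytokine of the interleukin 6 family and an inhibitor of TGF-beta signalling. The 10 largest falls by the same rule were those of Reg3b, Aldoc, Cxcl11, Mx2, Tmem176a, Usp18, Atp1b2, C1s, Igfbp5 and Sfrp2, between -1.79 and -3.27. Among them Mx2 and Usp18 belong to the interferon-induced genes, Cxcl11 is a chemokine that interferon induces, and Reg3b is a secreted acute phase protein. Tmem176a, which codes for a membrane protein, had signals of 7.78, 7.46 and 7.15 in the unstretched arrays of harvests 1, 2 and 4 and 5.81, 4.67 and 5.52 in their stretched partners. Its stretched arrays were all lower, with a change of -2.13 ± 0.30 (SE, 3 arrays a group, adjusted p = 4.52e-05). Sfrp2, an inhibitor of Wnt signalling, went from 8.56, 8.99 and 8.72 to 5.79, 7.55 and 7.55 and its groups did not overlap either. The ranks and sizes above are as labelled, and some sizes moved with the arrangement. With the arrays exchanged and without the harvest 1 stretched array, Aldoc changed by -1.66 and -1.73 and Sfrp2 by -1.25 and -1.20. Slc7a3 changed by 2.60 and 2.38. Others moved little, such as Usp18 (-2.16 and -2.12) and Pmepa1 (1.20 and 1.28). The rises rested more on single arrays than the falls. Where calls of several genes are given here and below as lost without 1 array or another, each gene lost its call without at least 1 of those arrays. It did not always lose it without each of them. Of the 20 genes, the calls of Slc7a3, Adamts8, Xirp2, Gdf15, Fstl3, Cnn1, Pkp1 and Il11 were lost without the unstretched array of harvest 1 (adjusted p = 0.0659 to 0.457), and those of Slc7a3, Adamts8, Xirp2, Gdf15, Fstl3, Pkp1 and Il11 without the unstretched array of harvest 2 or 4 or the stretched array of harvest 2 or 4 (adjusted p = 0.0512 to 0.259).

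**Figure D2:**
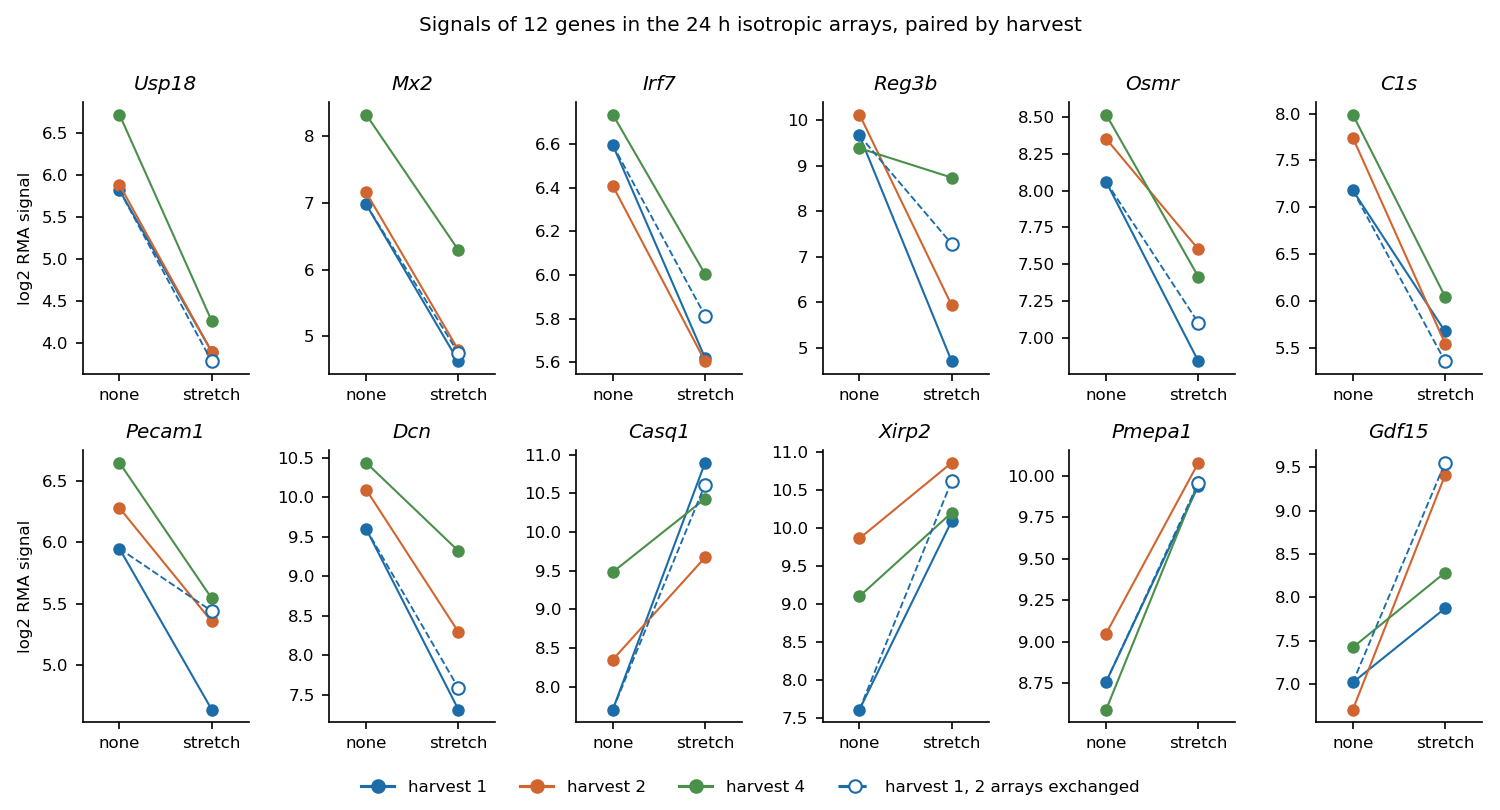
Log2 RMA signals of 12 genes in the 3 unstretched and 3 stretched isotropic arrays of 24 h, lines joining arrays of the same harvest; the open point is the array that takes the place of the harvest 1 stretched array when the 2 arrays are exchanged. Usp18 falls from between 5.82 and 6.72 to between 3.89 and 4.26, or to 3.78 in the array exchanged in, and Pmepa1 rises to between 9.94 and 10.08, with 9.96 in the array exchanged in.

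**Figure D3:**
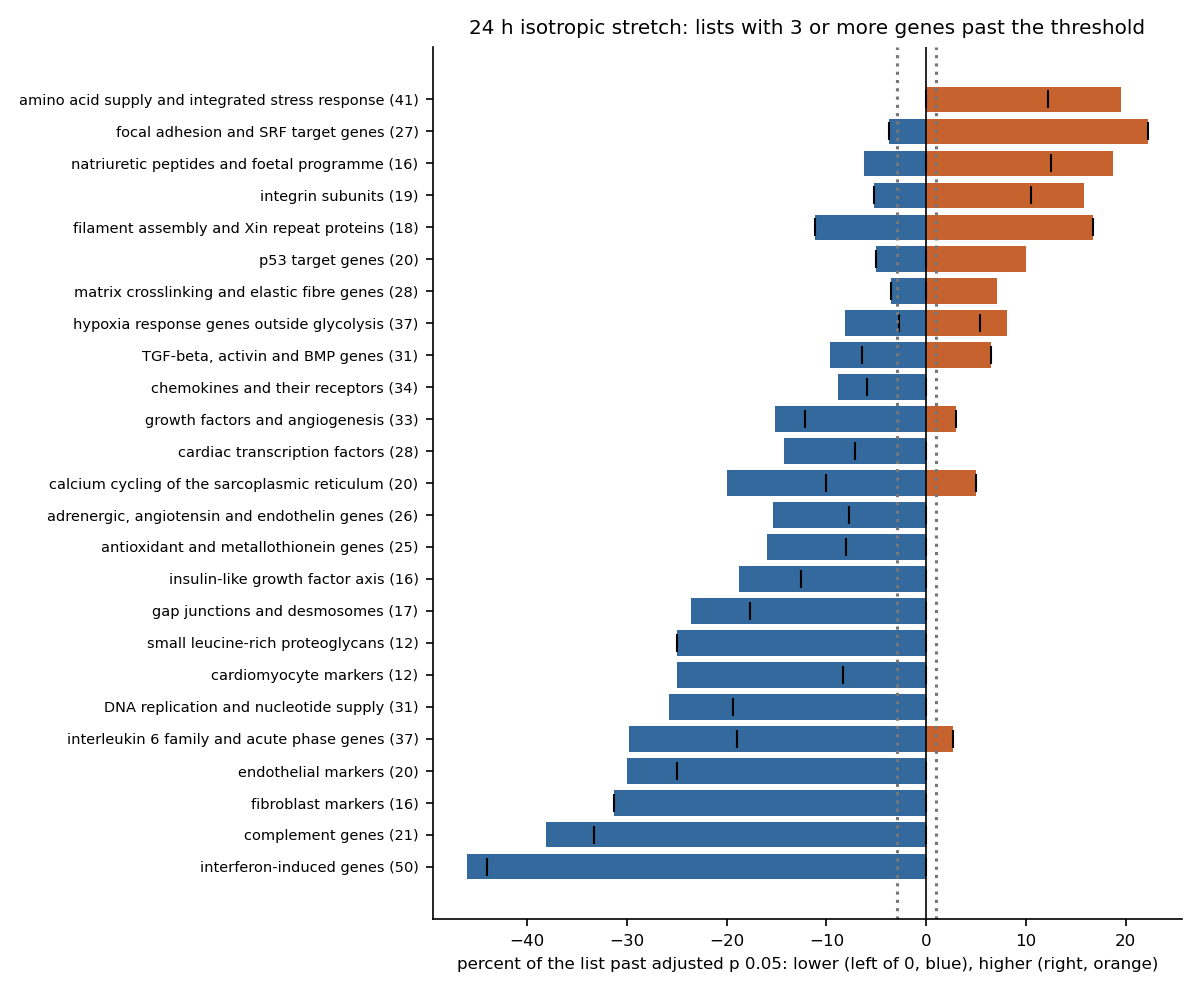
Percent of each list that passed adjusted p 0.05, lower genes to the left of 0 and higher genes to the right, with the number of measured members in brackets; black ticks mark the share that passed in all 3 arrangements and dotted lines the shares over all genes (2.97% lower, 0.993% higher). The interferon-induced genes reach furthest to the left, with 23 of 50 lower.

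Many interferon-induced genes fell in stretched tissue. Of 50 measured, 23 fell and none rose. Their median change was -0.41 against 0.0044 over all genes. The count of lower genes was 29 with the arrays exchanged and 25 without the harvest 1 stretched array, and 22 passed in all 3 arrangements. It was 17, 22 and 18 without the unstretched array of harvest 1, 2 or 4 and 17 and 23 without the stretched array of harvest 2 or 4. To show what these genes share in sequence, 4 of their promoters are printed as RefSeq gives them on the rat build GRCr8, from 250 bases before to 50 after the gene's start; capitals mark the core of the interferon-stimulated response element, TTTC and, after any 2 bases, TTTC again, on either strand, with overlapping matches joined. The windows are chr1:205541709-205542008 for Ifitm3 (a membrane protein that blocks virus entry), chr1:205799974-205800273 for Irf7 (a transcription factor that amplifies interferon production), chr2:243303791-243304090 for Ifi44 (an interferon-induced protein) and chr12:41395803-41396102 for Oas1b (of the family of oligoadenylate synthetases), all on the minus strand.
Ifitm3: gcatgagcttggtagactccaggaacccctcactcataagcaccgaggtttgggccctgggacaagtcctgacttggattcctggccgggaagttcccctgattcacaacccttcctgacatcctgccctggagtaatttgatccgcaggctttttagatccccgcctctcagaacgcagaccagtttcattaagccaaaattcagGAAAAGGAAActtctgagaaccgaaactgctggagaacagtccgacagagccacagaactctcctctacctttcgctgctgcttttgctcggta
Irf7: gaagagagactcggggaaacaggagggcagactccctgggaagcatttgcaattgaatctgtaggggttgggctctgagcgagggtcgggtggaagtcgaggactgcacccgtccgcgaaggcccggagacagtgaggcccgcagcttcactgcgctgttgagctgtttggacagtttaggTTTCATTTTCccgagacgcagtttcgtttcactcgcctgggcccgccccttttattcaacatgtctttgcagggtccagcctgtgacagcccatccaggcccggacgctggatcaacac
Ifi44: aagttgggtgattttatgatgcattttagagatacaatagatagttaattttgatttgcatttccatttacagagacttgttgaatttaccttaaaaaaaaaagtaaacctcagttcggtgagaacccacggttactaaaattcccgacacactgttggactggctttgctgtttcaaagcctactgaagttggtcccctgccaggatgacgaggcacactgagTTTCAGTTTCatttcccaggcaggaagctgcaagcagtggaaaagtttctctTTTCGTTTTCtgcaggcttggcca
Oas1b: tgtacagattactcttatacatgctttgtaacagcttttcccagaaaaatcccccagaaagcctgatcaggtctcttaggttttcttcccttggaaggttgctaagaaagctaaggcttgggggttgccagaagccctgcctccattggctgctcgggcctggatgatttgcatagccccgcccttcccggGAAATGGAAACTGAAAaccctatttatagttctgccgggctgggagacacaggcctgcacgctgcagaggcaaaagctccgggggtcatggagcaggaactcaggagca
The core lay in the promoters of 25 of the 37 listed interferon-induced genes that have one in the table, where a gene counted if any of its promoters held it. Counted by promoter and not by gene, the core was in 3.92% of all 33469 promoters and in 3.13% of those of tested genes. It was in 13 of the 18 that passed the threshold and in 12 of the 19 that did not, in both cases more often than in promoters at large.

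Usp18, the protease that removes the ubiquitin-like protein Isg15 from its targets and limits interferon receptor signalling, had signals of 5.82, 5.88 and 6.72 in the unstretched arrays of harvests 1, 2 and 4. In the stretched arrays they were 3.89, 3.89 and 4.26, so that every stretched array was below every unstretched one. The change was -2.12 ± 0.23 (SE), 4.36-fold lower, with an adjusted p of 5.55e-07. It was -2.16 with the arrays exchanged and -2.12 without the harvest 1 stretched array, and the difference within harvests was -1.92, -1.99 and -2.46. Mx2, an antiviral dynamin-like GTPase, went from 6.98, 7.16 and 8.33 to 4.63, 4.80 and 6.30. Harvest 4 was higher than the other harvests in both groups, and the groups did not overlap (-2.25 ± 0.30, adjusted p = 1.45e-05).

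Components that carry the interferon signal fell as well. Stat2 changed by -0.69 (adjusted p = 0.00167) and its partner Irf9 by -0.91 (0.000152). Irf7 had signals of 6.59, 6.41 and 6.73 without stretch and 5.62, 5.60 and 6.004 with it, with no overlap, a change of -0.84 (adjusted p = 0.000306). The sensors of double-stranded RNA fell too: Ifih1, which codes for MDA5, by 0.64 (adjusted p = 0.000565), Ddx58, which codes for RIG-I, by 0.62 (0.00377), and the kinase Eif2ak2 by 0.61 (0.000894). Among the effectors, Isg15 went from 5.60, 5.77 and 5.81 to 4.73, 4.98 and 5.01 (adjusted p = 0.000516), again with no overlap. Ifitm3 changed by -1.28, Parp9 by -1.002, Lgals9 by -0.81, Oas1b by -0.80, Ifi44 by -0.75, Ifi27 by -0.73 and Oas1a by -0.59, each with an adjusted p under 0.05 in all 3 arrangements. Other genes of the list that fell were Oas1i, Ifi35, the helicase Ddx60, the immunoproteasome subunit Psmb8, Lgals3bp and the ubiquitin ligase Trim25, by 0.38 to 0.71. Among the interferon-induced genes named, the calls of Ifi44, Oas1i, Ifi35, Psmb8 and Lgals3bp were lost without the unstretched array of harvest 1 (adjusted p = 0.0505 to 0.0873), and those of Lgals9, Ifi27, Oas1a, Oas1i, Ifi35, Ddx60, Psmb8, Lgals3bp and Trim25 without the unstretched array of harvest 2 or 4 or the stretched array of harvest 2 (adjusted p = 0.059 to 0.135). The exception in the 3 arrangements was Trim25 without the harvest 1 stretched array (adjusted p = 0.0509).

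Some familiar members did not pass. Mx1 changed by -0.15 ± 0.10 (SE, adjusted p = 0.48), Ifit3 by -0.23 (0.419) and Bst2 by -0.27 (0.184), each with signals below 5 in every array of the comparison. Irf1, a target of interferon gamma, changed by -0.027 (adjusted p = 0.947). Cxcl10 stood at 5.67, 5.72 and 5.67 without and 4.99, 5.13 and 5.25 with stretch, a change of -0.56 that missed the threshold (adjusted p = 0.0671), and passed with the arrays exchanged (0.0276). The mean signal of the endothelial markers was also lower in each stretched array (5.58 to 5.70 against 5.84 to 6.06), and its part in the interferon result was not tested.

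**Figure D4:**
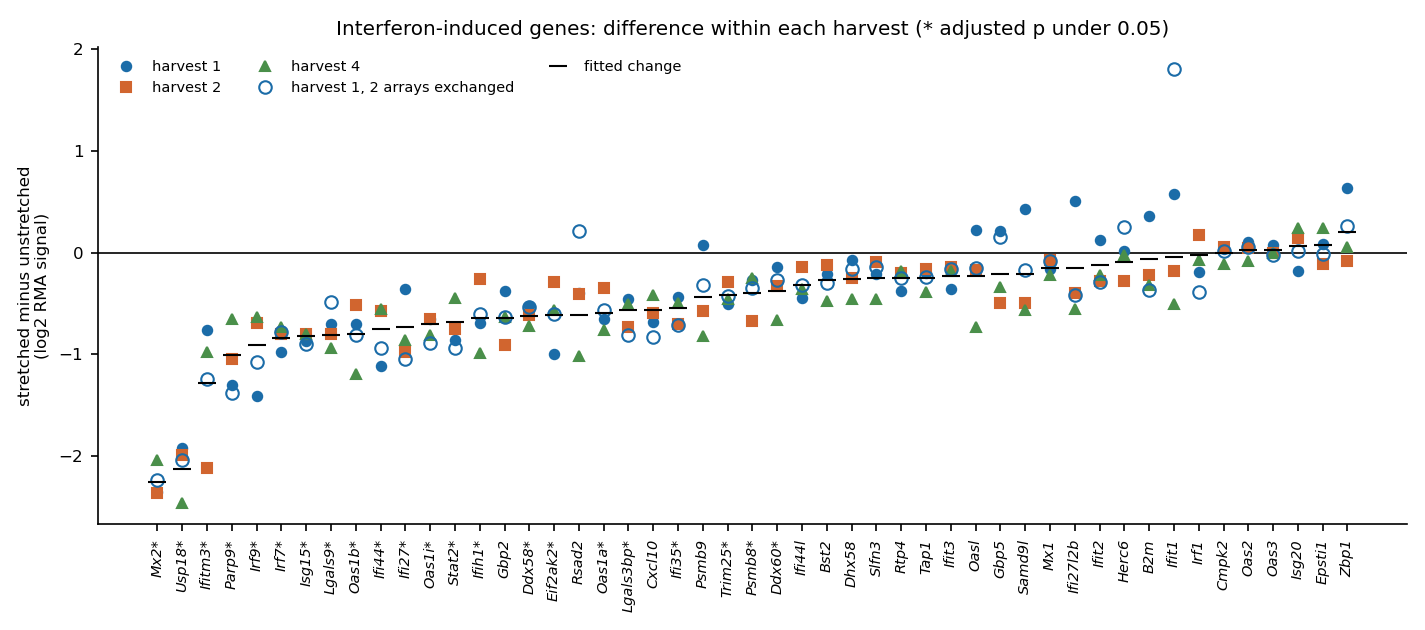
Stretched minus unstretched log2 signal within each harvest for interferon-induced genes, ordered by the fitted change (black dashes). Shown are the listed genes that passed and are named in the text, and all listed genes that did not pass. Open circles give harvest 1 with the 2 arrays exchanged and asterisks mark adjusted p under 0.05. Mx2 and Usp18 lie near -2 in every harvest, and most genes marked with an asterisk lie below 0 in each.

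Chemokines, which guide immune cells, moved in fewer cases, with 3 of 34 lower, none higher and a median of -0.053. Cxcl11 had signals of 8.08, 7.94 and 8.11 without stretch and 4.89, 4.88 and 7.20 with it. The stretched arrays of harvests 1 and 2 were near 5 and that of harvest 4 well above them, yet all lay below the unstretched range (-2.38 ± 0.39, adjusted p = 0.000221). Cxcl12, a chemokine of stromal cells, fell from 7.53, 7.68 and 7.35 to 5.74, 6.36 and 6.73 (adjusted p = 9.01e-05), and both genes passed in all 3 arrangements. The chemokine counts were 0 higher and 4 lower with the arrays exchanged, 1 higher and 2 lower without the harvest 1 stretched array and 0 higher and 2 lower in all 3 arrangements. Ccl12, a monocyte chemokine, had a change of -2.39 as labelled (adjusted p = 0.0203), of which much came from the harvest 1 stretched array at 4.51. Without that array it was -1.29 and did not pass (adjusted p = 0.226). Among the chemokines, the call of Ccl12 was lost without the unstretched array of harvest 1 (adjusted p = 0.111), and likewise without the unstretched array of harvest 2 (adjusted p = 0.0779).

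Receptors and targets of the interleukin 6 family fell, while 1 of its ligands rose. Of 37 listed genes 11 were lower and 1 higher, with 7 and 1 in all 3 arrangements, and the median was -0.21. The count of lower genes was 7, 8 and 11 without the unstretched array of harvest 1, 2 or 4 and 10 and 12 without the stretched array of harvest 2 or 4. Among the ligands, Il11 stood at 5.49, 5.95 and 5.86 without stretch and 5.68, 7.39 and 7.82 with it. Its stretched arrays of harvests 2 and 4 were well above the unstretched range and that of harvest 1 was inside it, as was the array exchanged with it (5.69). The change was 1.20 ± 0.34 (adjusted p = 0.0335), and 1.84 without the harvest 1 stretched array. Il6 changed by 0.39 (adjusted p = 0.402), and of the 3 arrangements passed only without that array (0.81, adjusted p = 0.0138).

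On the receptor side, Osmr, the oncostatin M receptor, went from 8.06, 8.35 and 8.52 to 6.84, 7.60 and 7.41 and Lifr, the leukaemia inhibitory factor receptor, from 8.06, 6.96 and 7.43 to 5.86, 5.94 and 6.80. Neither gene's groups overlapped, and the changes were -1.03 ± 0.18 (adjusted p = 0.0004) and -1.28 ± 0.19 (6.52e-05). Il6st, the shared signalling chain, changed by -0.47 (adjusted p = 0.00817) and Jak2 by -0.76 (0.000251), whereas Stat3 itself changed by -0.29 and did not pass (0.301). Downstream, the feedback inhibitor Socs3 changed by -1.32 (adjusted p = 0.00426), Pim1, a kinase, by -0.60 (0.0221) and Cebpd, a transcription factor of the acute phase, by -0.57 (0.000769). Socs3, Pim1 and Il6st no longer passed without the harvest 1 stretched array (adjusted p = 0.0667, 0.29 and 0.087). The threshold was missed by Pim1 with the arrays exchanged (adjusted p = 0.0716). On this side, the calls of Il6st, Socs3 and Pim1 were lost without the unstretched array of harvest 1 (adjusted p = 0.0563 to 0.183), and that of Pim1 without the unstretched array of harvest 2 (adjusted p = 0.08).

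As labelled, Reg3b had the largest fall of any gene tested. Its unstretched signals were 9.66, 10.12 and 9.38 in harvests 1, 2 and 4, and its stretched signals 4.70, 5.93 and 8.74. The size of the fall differed widely between harvests, smallest in harvest 4, but the groups did not overlap (-3.27 ± 0.60, adjusted p = 0.000814). The change was -2.41 with the arrays exchanged (adjusted p = 0.00151) and -2.42 without the harvest 1 stretched array (adjusted p = 0.0143). Reg3g, of the same family, changed by -1.33 (adjusted p = 0.0143). The metallothionein Mt2A, a metal-binding protein that also responds to cytokines, went from 10.06, 10.65 and 10.58 to 7.62, 9.46 and 9.64 with no overlap (adjusted p = 0.00118), and Mt1a changed by -0.89 (0.0326; without the harvest 1 stretched array 0.0694). Of these acute phase genes, the call of Mt1a was lost without the unstretched array of harvest 1 (adjusted p = 0.168), and those of Reg3g and Mt1a without the unstretched array of harvest 2 or the stretched array of harvest 2 (adjusted p = 0.0658 to 0.153).

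Complement genes, whose products mark microbes and debris for clearance, fell in several cases. Of 21 measured 8 were lower and none higher, 7 of them in all 3 arrangements, with a median of -0.16. The count of lower genes was 5, 7 and 8 without the unstretched array of harvest 1, 2 or 4 and 5 and 7 without the stretched array of harvest 2 or 4. The proteases of the first complex led: C1s stood at 7.18, 7.74 and 7.99 without stretch and 5.67, 5.54 and 6.04 with it, and C1r at 9.72, 10.17 and 10.23 and 9.48, 8.84 and 9.16. In both genes every stretched array was below every unstretched one (-1.88 ± 0.30, adjusted p = 0.000157, and -0.88 ± 0.19, adjusted p = 0.00416). The C1q chains, typically made by macrophages, changed by -0.91 (C1qa), -0.58 (C1qb) and -1.31 (C1qc), each past the threshold. The inhibitor of C1, Serping1, changed by -0.86 and the membrane inhibitor Cd59b by -0.73 (adjusted p = 0.00136 and 0.000131). Masp1, a protease of the lectin pathway, fell by 0.60 as labelled. It did not pass without the harvest 1 stretched array (adjusted p = 0.0668). Among complement genes, the calls of C1qa, C1qb and Masp1 were lost without the unstretched array of harvest 1 (adjusted p = 0.0996 to 0.222), and those of C1r, C1qa and C1qb without the unstretched array of harvest 2 or the stretched array of harvest 2 or 4 (adjusted p = 0.0632 to 0.337). C7, of the terminal complex, changed by -1.48 as labelled and did not pass (0.246), with its harvest 1 stretched array at 7.23 against 4.18 and 4.43 in the other stretched arrays. Without the harvest 1 stretched array C7 changed by -2.59 and passed (adjusted p = 0.0121), a larger fall than that of Reg3b there (-2.42).

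Some markers of the cells that accompany myocytes in a primary ventricular culture fell in stretched tissue. In bulk tissue fewer cells of a type and less RNA per cell cannot be told apart. Of 20 endothelial markers 6 were lower and none higher, 5 in all 3 arrangements, and the median was -0.35. The count of lower endothelial markers was 4, 4 and 5 without the unstretched array of harvest 1, 2 or 4 and 3 and 5 without the stretched array of harvest 2 or 4. The mean log2 signal over the list was 5.84 to 6.06 in the unstretched and 5.58 to 5.70 in the stretched arrays, so the groups did not overlap. Pecam1, an adhesion molecule between endothelial cells, stood at 5.95, 6.28 and 6.65 without and 4.63, 5.35 and 5.54 with stretch (-1.12 ± 0.15, adjusted p = 2.53e-05). Tie1 and Emcn, both surface proteins of endothelium, changed by -0.79 and -0.72, the VEGF receptor Flt1 by -0.56 and the junction protein Esam by -0.60, each passing in all 3 arrangements. Kdr, the main VEGF receptor, changed by -1.13 as labelled (adjusted p = 0.0165) and did not pass without the harvest 1 stretched array (0.0852). Thbd, the thrombin receptor thrombomodulin, fell from 6.55, 6.88 and 6.74 to 4.70, 5.10 and 5.72 (adjusted p = 0.000163). Of the endothelial genes, the calls of Esam and Kdr were lost without the unstretched array of harvest 1 (adjusted p = 0.06 to 0.0639), and those of Flt1, Esam and Kdr without the unstretched array of harvest 2 or 4 or the stretched array of harvest 2 or 4 (adjusted p = 0.0515 to 0.172).

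Of 16 fibroblast markers 5 were lower, all of them in all 3 arrangements: the proteoglycans Dcn (-1.74) and Lum (-1.70), the matrix protein Dpt (-1.25), the growth factor receptor Pdgfra (-1.49) and the transcription factor Tcf21 (-1.34). Tcf21 stood at 8.998, 8.72 and 8.12 without and 7.93, 6.83 and 7.07 with stretch, with no overlap. The count of lower fibroblast markers was 3, 3 and 4 without the unstretched array of harvest 1, 2 or 4 and 3 and 5 without the stretched array of harvest 2 or 4. The mean log2 signal over the list was 8.95 to 9.29 in the unstretched and 8.12 to 9.43 in the stretched arrays. The highest stretched value was that of harvest 1 (9.43), against 8.12 and 8.48 in harvests 2 and 4, and the list's median change was -0.12 as labelled, -0.73 exchanged and -0.89 without that array. The fibroblast counts were 0 higher and 7 lower with the arrays exchanged, 0 higher and 7 lower without the harvest 1 stretched array and 0 higher and 5 lower in all 3 arrangements. Macrophage markers had 2 of 18 lower, C1qa and the scavenger receptor Msr1 (-0.76, adjusted p = 0.00016), with a mean signal of 6.18 to 6.45 in the unstretched and 6.00 to 6.50 in the stretched arrays. Among the fibroblast and macrophage markers named, the calls of Lum and Dpt were lost without the unstretched array of harvest 1 (adjusted p = 0.0874 to 0.141). Both were also lost without the unstretched or the stretched array of harvest 2, and Lum without the unstretched array of harvest 4 (adjusted p = 0.0518 to 0.177).

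The haemoglobin genes, which mark remaining red cell precursors, set the harvest 1 stretched array apart. Hbb stood at 10.76, 10.92 and 10.58 without stretch and 5.93, 9.70 and 8.98 with it, and Hba-a2 at 12.66, 12.54 and 12.48 and 6.87, 11.64 and 11.07. The harvest 1 stretched array was lowest by far, and the array exchanged with it stood at 9.74 and 12.02. Over all 6 erythroid genes the mean signal was 7.13 to 7.22 in the unstretched and 5.25 to 6.69 in the stretched arrays. Of the 12 cardiomyocyte markers 3 were lower as labelled (Ryr2, Pln and Myh6) and none higher, with a median of -0.036; 1, Pln, passed in all 3 arrangements. That count was 0, 0 and 1 without the unstretched array of harvest 1, 2 or 4 and 0 and 4 without the stretched array of harvest 2 or 4. None of the Schwann cell and neuronal markers passed, and of the smooth muscle markers Cnn1 was higher and the receptor Notch3 lower (-0.67, adjusted p = 0.0188). Among marker genes of this kind, the calls of Notch3 and Hbb were lost without the unstretched array of harvest 1 (adjusted p = 0.115 to 0.208). Notch3 was also lost without the stretched array of harvest 2, and Hbb without the unstretched array of harvest 2 or that of harvest 4 (adjusted p = 0.0549 to 0.183). A haemoglobin call missed the threshold, that of Hbb without the harvest 1 stretched array (adjusted p = 0.264). The part of these marker signals in the other results was not tested.

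Some genes of the contact between cell and matrix rose. Of 27 focal adhesion and serum response factor target genes 6 rose and 1 fell, the same numbers in all 3 arrangements, with a median of 0.15. The count of higher genes was 2, 6 and 6 without the unstretched array of harvest 1, 2 or 4 and 4 and 7 without the stretched array of harvest 2 or 4. Pdlim7, a scaffold of actin filaments, stood at 8.21, 8.48 and 8.01 without stretch and 8.73, 9.12 and 8.58 with it. Its stretched arrays were all above the unstretched ones (0.57 ± 0.11, adjusted p = 0.00167). The crosslinker Actn1 rose by 0.64 (adjusted p = 0.0317), the adhesion proteins Tes by 0.56 (0.00502) and Zyx by 0.42 (0.013), and Mkl1, the coactivator that takes actin signals to serum response factor, by 0.41 (0.00502). Tln2, a talin of striated muscle, fell by 0.63 (adjusted p = 0.0163). Among these adhesion genes, the calls of Actn1, Tes, Zyx and Tln2 were lost without the unstretched array of harvest 1 (adjusted p = 0.0718 to 0.476), and those of Actn1, Zyx, Mkl1 and Tln2 without the unstretched array of harvest 4 or the stretched array of harvest 2 (adjusted p = 0.0515 to 0.183).

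Cnn1, an actin-binding protein of smooth muscle and of immature myocytes, had signals of 6.45, 8.67 and 9.41 in unstretched and 9.33, 9.63 and 9.58 in stretched tissue. The unstretched array of harvest 1 was far below the others, and the unstretched array of harvest 4 lay inside the stretched range (1.34 ± 0.35, adjusted p = 0.0202). The same unstretched array of harvest 1 was lowest of all 6 for several genes of this kind. Fhl1, a LIM protein of the sarcomere, stood at 10.02, 11.64 and 11.84 and 11.87, 12.39 and 12.04, a change of 0.93 (adjusted p = 0.0152). Hbegf, a growth factor of the EGF family, stood at 7.42, 9.67 and 8.66 and 9.38, 10.12 and 9.81 (1.19, adjusted p = 0.0295). Without the unstretched array of harvest 1, the changes were 0.50 (adjusted p = 0.457) for Cnn1, 0.35 (adjusted p = 0.375) for Fhl1 and 0.62 (adjusted p = 0.459) for Hbegf. Calls were also lost for Fhl1 and Hbegf without the stretched array of harvest 2 (adjusted p = 0.0866 and 0.0854) and Hbegf without the stretched array of harvest 4 (adjusted p = 0.0748).

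Filament assembly genes moved both ways, with 3 of 18 higher and 2 lower in all 3 arrangements; without the unstretched array of harvest 1 none passed. The counts were 7 higher and 2 lower with the arrays exchanged, 4 higher and 2 lower without the harvest 1 stretched array and 3 higher and 2 lower in all 3 arrangements. Xirp2, which binds actin at the ends of the contractile filaments, rose from 7.61, 9.86 and 9.10 to 10.10, 10.86 and 10.20 (1.53 ± 0.36, adjusted p = 0.00891). Every stretched array was above every unstretched one. Lmod2, which lengthens thin filaments, rose by 0.58 and Nrap, a scaffold of new myofibrils, by 0.57. The filament capping protein Tmod4 changed by -0.82 and the Z disc protein Nebl by -0.66 (adjusted p = 0.00357 and 0.0278), and in both the harvest 4 pair differed least (0.11 and -0.19). Of the filament genes, the calls of Xirp2, Lmod2, Nrap, Tmod4 and Nebl were lost without the unstretched array of harvest 1 (adjusted p = 0.0808 to 0.365), and those of Xirp2, Lmod2, Nrap and Nebl without the unstretched array of harvest 2 or 4 or the stretched array of harvest 2 or 4 (adjusted p = 0.0512 to 0.236).

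Of 19 integrin subunits 3 rose and 1 fell, against 3 higher and 1 lower with the arrays exchanged, 4 higher and 1 lower without the harvest 1 stretched array and 2 higher and 1 lower in all 3 arrangements. Itga6, a laminin receptor subunit, went from 7.02, 7.86 and 7.89 to 8.55, 8.76 and 8.38 with no overlap (0.98 ± 0.20, adjusted p = 0.00243). Itgb5 rose by 0.50 (adjusted p = 0.00497) and Itgav, its partner, by 0.48 (0.0324), the latter losing its call with the arrays exchanged (0.0809) and without the harvest 1 stretched array (0.11). Itgb8, which releases active TGF-beta, changed by -0.89 (adjusted p = 0.00192). Itga5, of the fibronectin receptor, changed by 0.44 and missed the threshold as labelled (0.0915) but not exchanged (0.00403). Of 19 YAP and TEAD target genes none was higher as labelled and 2 were lower, the coagulation starter F3 (-0.58) and the focal adhesion protein Dlc1 (-0.80), against 4 higher and 2 lower with the arrays exchanged, 1 higher and 2 lower without the harvest 1 stretched array and 0 higher and 2 lower in all 3 arrangements. Ctgf, the best known of these targets, stood at 9.70, 11.37 and 10.93 and 11.27, 11.84 and 11.51. Its change of 0.87 did not pass as labelled (adjusted p = 0.0755) and did with the arrays exchanged (1.09, adjusted p = 0.00743). Among integrins and YAP targets, the calls of Itga6, Itgb5 and Itgav were lost without the unstretched array of harvest 1 (adjusted p = 0.0806 to 0.169), and that of Itgav without the unstretched array of harvest 2 or the stretched array of harvest 2 (adjusted p = 0.106 to 0.129).

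Of 16 genes of the foetal programme and its companions 3 were higher (Nppa, Gdf15 and Fhl1) and 1 lower (Myh6), at a median of 0.052, and none passed without the unstretched array of harvest 1. The counts were 3 higher and 1 lower with the arrays exchanged, 2 higher and 0 lower without the harvest 1 stretched array and 2 higher and 0 lower in all 3 arrangements. Nppa, the atrial natriuretic peptide, had signals of 10.49, 12.42 and 12.51 without and 12.71, 12.58 and 12.54 with stretch. All stretched arrays were slightly above the unstretched arrays of harvests 2 and 4, and the change of 0.80 ± 0.23 (adjusted p = 0.0397) came mostly from the unstretched array of harvest 1 (without it 0.23 with adjusted p = 0.652). Nppb, the brain natriuretic peptide, changed by 0.048 ± 0.23 (adjusted p = 0.949), and Acta1, the skeletal actin, by 0.48 ± 0.30 (0.456). Of the heavy chains, Myh6, the adult form in rat ventricle, changed by -0.40 (adjusted p = 0.0349) and Myh7, the foetal form, by 0.082 (0.745). Ankrd1, a titin-linked strain sensor near the top of the signal range in every array, changed by 0.07 (adjusted p = 0.742), and the immediate early gene Fos by 0.25 (0.393). Of the immediate early genes Jund alone passed as labelled (0.46, adjusted p = 0.034). Among these genes, the calls of Nppa, Myh6 and Jund were lost without the unstretched array of harvest 1 (adjusted p = 0.187 to 0.652), and those of Myh6 and Jund without the unstretched array of harvest 2 or 4 or the stretched array of harvest 2 or 4 (adjusted p = 0.0649 to 0.254). In the other arrangements the threshold was missed by Nppa and Myh6 without the harvest 1 stretched array (adjusted p = 0.0678 to 0.189).

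Secreted factors and inhibitors of the TGF-beta family were among the largest rises. Pmepa1, a membrane protein that blocks TGF-beta receptor signalling and is itself induced by it, stood at 8.76, 9.05 and 8.59 without stretch and 9.94, 10.08 and 9.96 with it. The stretched arrays lay close together and all above the unstretched ones (1.19 ± 0.19, 2.29-fold, adjusted p = 0.000152). Fstl3, which binds activin, went from 7.25, 8.44 and 8.22 to 8.36, 10.24 and 9.60, where harvest 1 started lower in both groups and the rise was present in each harvest. Gdf15, a stress cytokine of this family, went from 7.02, 6.71 and 7.42 to 7.87, 9.41 and 8.29 with no overlap (1.47 ± 0.38, adjusted p = 0.0187). Of the 31 listed genes of the family 2 rose (Fstl3 and Gdf15) and 3 fell, namely the co-receptor Tgfbr3 (-1.08) and the BMP targets Id3 (-0.78) and Id2 (-0.64), against 4 higher and 4 lower with the arrays exchanged, 3 higher and 4 lower without the harvest 1 stretched array and 2 higher and 2 lower in all 3 arrangements. Id2 no longer passed in the other arrangements (adjusted p = 0.055 exchanged and 0.0677 without the harvest 1 stretched array). Adamts8, a secreted metalloprotease, rose from 5.30, 5.71 and 5.30 to 6.15, 7.16 and 7.73 (1.58 ± 0.35, adjusted p = 0.00532). It was the only higher gene among 30 metalloproteinases and inhibitors, of which Adamts7 was the only lower one (-0.57), and its groups did not overlap. Pkp1, a plakophilin of desmosomes, went from 5.50, 5.92 and 5.49 to 6.48, 7.59 and 6.55, likewise without overlap. Fgf13, an intracellular relative of the fibroblast growth factors, and Hgf, a growth factor of stromal cells, changed by -0.86 and -0.46 (adjusted p = 0.000221 and 0.0114). Of the secreted factors and inhibitors, the calls of Fstl3, Gdf15, Id2, Adamts8, Adamts7 and Pkp1 were lost without the unstretched array of harvest 1 (adjusted p = 0.0659 to 0.151), and those of Fstl3, Gdf15, Id3, Adamts8, Pkp1 and Hgf without the unstretched array of harvest 2 or 4 or the stretched array of harvest 2 or 4 (adjusted p = 0.0507 to 0.179). The metalloproteinase counts were 1 higher and 6 lower with the arrays exchanged, 1 higher and 6 lower without the harvest 1 stretched array and 1 higher and 1 lower in all 3 arrangements.

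Calcium handling genes split. Casq1, the skeletal form of calsequestrin that stores calcium in the sarcoplasmic reticulum, had the largest rise of any gene tested as labelled. It stood at 7.71, 8.35 and 9.48 in unstretched and 10.90, 9.67 and 10.43 in stretched tissue, with every stretched array higher (1.82 ± 0.31, 3.53-fold, adjusted p = 0.000349). The change was 1.73 with the arrays exchanged (adjusted p = 0.000138) and 1.39 without the harvest 1 stretched array (adjusted p = 0.0063). In those 2 arrangements Slc7a3 rose more, by 2.60 and 2.38. Of 20 genes of the list Casq1 was the only one higher, and 4 were lower. The count of lower genes was 1, 1 and 3 without the unstretched array of harvest 1, 2 or 4. It was 1 and 6 without the stretched array of harvest 2 or 4. The counts were 1 higher and 5 lower with the arrays exchanged, 1 higher and 4 lower without the harvest 1 stretched array and 1 higher and 2 lower in all 3 arrangements. Atp2a2, the calcium pump, stood at 12.80, 12.47 and 12.54 and 11.99, 11.64 and 12.54. Its harvest 4 pair was level, while harvests 1 and 2 were lower with stretch (-0.54 ± 0.11, adjusted p = 0.00249). Pln, which restrains that pump, changed by -0.36, the release channel Ryr2 by -0.73 and its anchor Trdn by -0.82 (adjusted p = 0.0298, 0.0262 and 0.0119). Ryr2 and Trdn did not pass without the harvest 1 stretched array (0.0524 and 0.104). Of the calcium genes, the calls of Pln, Ryr2 and Trdn were lost without the unstretched array of harvest 1 (adjusted p = 0.0638 to 0.115). All were also lost without the unstretched or the stretched array of harvest 2, and Pln without the unstretched array of harvest 4 (adjusted p = 0.0767 to 0.31).

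Several genes of electrical coupling and excitation fell. Gja5, the connexin of atrium and conduction system, went from 8.29, 8.12 and 8.35 to 6.38, 6.80 and 7.72, and Gja1, the main ventricular connexin, from 11.02, 11.12 and 11.18 to 10.62, 10.02 and 10.83. Neither overlapped between groups (-1.29 ± 0.22, adjusted p = 0.000351, and -0.61 ± 0.13, adjusted p = 0.0027), and of the 17 listed junction genes 4 were lower and none higher; the others were Popdc3 (-0.57) and the alpha-catenin listed as RGD1562230 (-1.04). The junction counts were 2 higher and 3 lower with the arrays exchanged, 0 higher and 3 lower without the harvest 1 stretched array and 0 higher and 3 lower in all 3 arrangements. Scn4b, a subunit of the sodium channel, stood at 8.51, 6.87 and 6.90 and 5.68, 5.09 and 6.23 (-1.76, adjusted p = 0.000606). It was the only one of 27 ion channel genes to pass as labelled, a share of 3.70% near the 3.96% of all genes. With the arrays exchanged 3 of the 27 passed, beside 8.21% of all genes. Atp1b2, a subunit of the sodium pump, went from 8.95, 8.10 and 7.72 to 6.004, 5.42 and 7.08 (-2.09 ± 0.27, adjusted p = 1.26e-05). Among receptors, Adra1b changed by -1.01 (alpha-1B adrenergic), Chrm2 by -0.81 (muscarinic), Ednra by -0.66 (endothelin) and the angiotensin-converting enzyme Ace by -1.19. Of these Ace and Adra1b passed in all 3 arrangements, and the receptor list counted 1 higher and 7 lower with the arrays exchanged, 1 higher and 3 lower without the harvest 1 stretched array and 0 higher and 2 lower in all 3 arrangements. The cardiac transcription factors Irx4 (-0.97), Hopx (-0.70), Irx3 (-0.70) and Tbx20 (-0.54) were lower out of 28 listed, none was higher, and Irx4 and Tbx20 held in all 3 arrangements. By arrangement, the threshold was missed by Popdc3 with the arrays exchanged (adjusted p = 0.0568) and Popdc3, Hopx, Irx3, Chrm2 and Ednra without the harvest 1 stretched array (adjusted p = 0.0521 to 0.131). The factor counts were 2 higher and 5 lower with the arrays exchanged, 1 higher and 2 lower without the harvest 1 stretched array and 0 higher and 2 lower in all 3 arrangements. Of these coupling, receptor and factor genes, the calls of Popdc3, Adra1b, Chrm2, Ednra, Hopx, Irx3 and Tbx20 were lost without the unstretched array of harvest 1 (adjusted p = 0.0528 to 0.286), and those of Popdc3, RGD1562230, Chrm2, Ednra and Irx3 without the unstretched array of harvest 2 or 4 or the stretched array of harvest 2 (adjusted p = 0.0533 to 0.229).

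The genes of amino acid supply and of the integrated stress response, which the factor ATF4 drives when amino acids are short or translation is held, counted 8 rises among 41 genes and no fall, with a median of 0.31. The count of rises was 0, 0 and 14 without the unstretched array of harvest 1, 2 or 4 and 3 and 9 without the stretched array of harvest 2 or 4, so that it rested on the unstretched arrays of harvests 1 and 2. With the arrays exchanged 19 rose and 1 fell, and 5 passed in all 3 arrangements. Slc7a3, a transporter of arginine and lysine, stood at 6.17, 5.15 and 8.26 without and 7.31, 8.86 and 8.78 with stretch, with an overlap made by the unstretched array of harvest 4 and the stretched array of harvest 1 (1.79 ± 0.49, adjusted p = 0.029). Asns, asparagine synthetase, went from 7.80, 7.42 and 8.91 to 9.19, 8.80 and 8.94. Its harvest 4 pair was level and its harvest 1 and 2 pairs were over 1 apart (0.93 ± 0.22, adjusted p = 0.00817). The glycine transporter Slc6a9 rose by 0.68 and the glycyl tRNA synthetase Gars by 0.34 in all 3 arrangements. Trib3, a feedback inhibitor, Nupr1, a stress-induced nuclear protein, and Eprs, another tRNA synthetase, changed by 0.84, 1.41 and 0.29 as labelled and missed the threshold without the harvest 1 stretched array. Atf4 itself changed by 0.078 (adjusted p = 0.802) and Ddit3, which it induces, by 0.44 (0.111). Among genes of amino acid supply, the calls of Slc7a3, Asns, Slc6a9, Gars, Trib3, Nupr1 and Eprs were lost without the unstretched array of harvest 1 (adjusted p = 0.119 to 0.317). All were also lost without the unstretched array of harvest 2. Without the stretched array of harvest 2 Asns and Nupr1 kept their calls. Without that of harvest 4 Slc7a3 alone of these was lost (adjusted p = 0.0765 to 0.259 for the calls lost without these 3 arrays).

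Of 31 glycolysis genes 1 was lower and 1 higher, with a median of -0.085. Aldoc, the brain form of aldolase, went from 11.19, 10.77 and 10.67 to 7.06, 8.25 and 10.06. It was over 2 lower in harvests 1 and 2 and fell by 0.61 in harvest 4, without overlap of the groups (-2.42 ± 0.40, adjusted p = 0.000229). Slc16a3, a lactate exporter, rose by 0.91 (adjusted p = 0.00437). None of 30 respiratory chain genes passed. The mTOR inhibitor Ddit4 (0.74), the clock-linked repressor Bhlhe40 (0.60) and the lysyl oxidase Loxl2 (0.75) were the higher of 37 hypoxia response genes, and Adm, a vasodilator peptide (-0.82), Adfp, a lipid droplet protein (-0.52), and the oxygen-regulated factor Hif1a (-0.39) the lower. Calls of the hypoxia list that changed with the arrangement were those of Adm and Hif1a with the arrays exchanged (adjusted p = 0.0517 to 0.258) and Adm, Hif1a and Loxl2 without the harvest 1 stretched array (adjusted p = 0.0874 to 0.329). Its counts were 4 higher and 2 lower with the arrays exchanged, 3 higher and 1 lower without the harvest 1 stretched array and 2 higher and 1 lower in all 3 arrangements. In energy metabolism and the hypoxia response, the calls of Slc16a3, Bhlhe40, Loxl2, Adm and Hif1a were lost without the unstretched array of harvest 1 (adjusted p = 0.0611 to 0.301). Slc16a3 and Hif1a were also lost without the unstretched array of harvest 2. Bhlhe40, Loxl2, Adm and Hif1a were lost without that of harvest 4. Bhlhe40 and Adm were lost without the stretched array of harvest 2 and without that of harvest 4 (adjusted p = 0.0514 to 0.152 for the calls lost without these 4 arrays).

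Igfbp5, a binding protein that holds insulin-like growth factors, fell from 8.67, 7.88 and 7.91 to 5.63, 5.92 and 7.47 (-1.81 ± 0.35, adjusted p = 0.0014), and harvest 4 again differed least. Igfbp4 (-0.62) and the growth-restraining RNA H19 (-0.82) were the other 2 of 16 genes of this axis that were lower, H19 only as labelled, and the counts were 1 higher and 5 lower with the arrays exchanged, 1 higher and 3 lower without the harvest 1 stretched array and 0 higher and 2 lower in all 3 arrangements. Among 25 antioxidant and metallothionein genes 4 were lower and none higher as labelled, against 4 higher and 8 lower with the arrays exchanged, 2 higher and 4 lower without the harvest 1 stretched array and 0 higher and 2 lower in all 3 arrangements; they include the glutathione peroxidase Gpx1 (-0.79, adjusted p = 0.00327) and the glutathione transferase Gstm1 (-0.97, 0.0158; 0.172 without the harvest 1 stretched array). Of 24 heat shock genes 1 was higher as labelled, the cochaperone Dnaja4 (0.39, adjusted p = 0.0313), and 9 with the arrays exchanged. Across these groups, the calls of Igfbp4, H19, Gstm1 and Dnaja4 were lost without the unstretched array of harvest 1 (adjusted p = 0.082 to 0.187), and those of Igfbp4, H19, Gpx1 and Dnaja4 without the unstretched array of harvest 2 or 4 or the stretched array of harvest 2 or 4 (adjusted p = 0.0533 to 0.184).

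Of 31 DNA replication genes 8 fell and none rose, with a median of -0.39; the count was 11 exchanged and 12 without the harvest 1 stretched array, and 6 passed in all 3 arrangements. It was 3, 3 and 3 without the unstretched array of harvest 1, 2 or 4 and 2 and 11 without the stretched array of harvest 2 or 4. Mcm3, a subunit of the replicative helicase, stood at 8.03, 8.34 and 8.08 and 7.48, 7.56 and 7.68 (-0.57 ± 0.16, adjusted p = 0.037). All 3 stretched arrays lay below the unstretched ones. Lower too were the helicase loaders and subunits Mcm5 (-0.70), Mcm10 (-0.48) and Orc1l (-0.52), the polymerase subunit Pola1 (-0.45), the clamp loader Rfc4 (-0.57) and the methylation reader Uhrf1 (-0.70). The threshold was missed by Mcm5 and Rfc4 with the arrays exchanged (adjusted p = 0.0699 to 0.332) and Rfc4 without the harvest 1 stretched array (adjusted p = 0.18). Among replication genes, the calls of Mcm3, Mcm5, Pola1, Rfc4 and Uhrf1 were lost without the unstretched array of harvest 1 (adjusted p = 0.0916 to 0.301), and those of Mcm3, Mcm5, Mcm10, Pola1, Rfc4 and Uhrf1 without the unstretched array of harvest 2 or 4 or the stretched array of harvest 2 (adjusted p = 0.0527 to 0.268). The promoter of Mcm3 is shown because an E2F site was found in several promoters of the list; its window is chr9:30733697-30733996 on the minus strand of GRCr8, from RefSeq, with TTTCGCGC or its complement in capitals.
Mcm3: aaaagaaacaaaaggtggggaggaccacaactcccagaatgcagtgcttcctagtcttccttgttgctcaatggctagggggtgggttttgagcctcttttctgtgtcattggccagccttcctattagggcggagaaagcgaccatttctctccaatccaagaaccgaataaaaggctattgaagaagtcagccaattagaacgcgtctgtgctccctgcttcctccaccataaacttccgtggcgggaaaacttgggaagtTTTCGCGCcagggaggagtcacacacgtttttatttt
That site was in 8 of 23 listed genes with a promoter in the table, and in 3 of the 6 such genes that passed against 5 of the 17 that did not. Counted by promoter and not by gene, it was in 0.326% of all promoters and in 0.504% of those of tested genes. None of the 34 mitosis genes passed as labelled, at a median of -0.41. Their median difference was 0.21 in harvest 1 as labelled, -1.08 in harvest 2 and -0.41 in harvest 4, and with the arrays exchanged 4 were lower.

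Matrix genes depended on the arrangement. As labelled, 1 of 20 collagen chains was lower (Col15a1, of basement membranes, -0.89, adjusted p = 0.00235) and none higher; exchanged, 7 were lower, and without the harvest 1 stretched array 5. Col3a1 stood at 10.23, 10.23 and 9.36 without stretch and 11.54, 8.29 and 8.97 with it, so that the stretched array of harvest 1 was the highest of the 6 and those of harvests 2 and 4 the lowest. The array exchanged with it stood at 8.94. The change was -0.34 as labelled (adjusted p = 0.804) and -1.20 exchanged (adjusted p = 0.000124). Col1a1 changed by 0.049 as labelled and -0.29 exchanged, past the threshold in neither (adjusted p = 0.952 and 0.295). The crosslinking enzyme Lox stood at 6.46, 6.77 and 6.50 without and 8.92, 7.50 and 7.82 with stretch and rose as labelled (adjusted p = 0.0298) and exchanged (0.90, 0.0223), but did not pass without the harvest 1 stretched array (0.232). Among matrix genes, the call of Lox was lost without the unstretched array of harvest 1 (adjusted p = 0.101), and likewise without the unstretched array of harvest 2 or 4 (adjusted p = 0.0809 to 0.0885). Cholesterol synthesis genes had a median of 0.11 as labelled, with none past the threshold, and -0.25 exchanged, with 6 lower. Of the caveolin, tubulin, unfolded protein response and ubiquitin ligase lists no gene passed as labelled.

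The 24 h response of isotropic tissue was set beside that of aligned tissue stretched for the same time, which shares no array with it. Longitudinal stretch moved 422 genes past the threshold (2.24%) and transverse stretch 295 (1.57%), as labelled. These counts were 820 and 669 with the 2 arrays exchanged, 238 and 224 with no harvest term, and 17 and 0 with the 24 h arrays only, where 1477 and 1361 had an unadjusted p under 0.05. The shares that follow are as labelled. Of the 746 genes of isotropic tissue, 256 (34.3%) also passed with longitudinal stretch, 60.7% of that list, and 117 (15.7%) with transverse stretch, 39.7% of that list, all of them in the same direction. Across all 18829 genes the correlation of the isotropic changes was 0.742 with the longitudinal and 0.593 with the transverse changes, as a description of arrays that share chip type and harvests. No gene's isotropic response differed from the longitudinal or from the transverse one past the threshold in limma's test of the difference. There 447 and 1141 genes had an unadjusted p under 0.05. The first count is below and the second above a share of 0.05 of all genes, which is expected when no gene differs. Without the stretched array of harvest 4, 8 and 113 genes passed the adjusted threshold.

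By list, beside 273, 184 and 559 lower genes among all 18829, interferon-induced genes were lower in 14 of 50 cases with longitudinal, 4 with transverse and 23 with isotropic stretch, and their medians were -0.28, -0.25 and -0.41. DNA replication genes were lower in 8, 8 and 8 cases. Focal adhesion genes were higher in 7, 0 and 6 cases, beside 149, 111 and 187 higher genes in all. The differences between these counts were not tested. Usp18 changed by -1.44 with longitudinal and -1.45 with transverse stretch against -2.12 here, and the differences of -0.69 (95% interval -1.34 to -0.029) and -0.67 (95% interval -1.35 to 0.005) did not pass (adjusted p = 1 and 0.831). Reg3b, with -1.12 and -1.06, differed by -2.15 (95% interval -3.89 to -0.40) and -2.21 (95% interval -4.01 to -0.41), and Casq1, with 1.24 and 0.46, by 0.58 (95% interval -0.32 to 1.48) and 1.36 (95% interval 0.43 to 2.28). None of these differences passed, and the intervals are wide. Pmepa1 rose by 1.19, 1.25 and 1.14 in isotropic, longitudinally and transversely stretched tissue, with differences of -0.054 (95% interval -0.60 to 0.49) and 0.053 (95% interval -0.51 to 0.61).

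**Figure D5:**
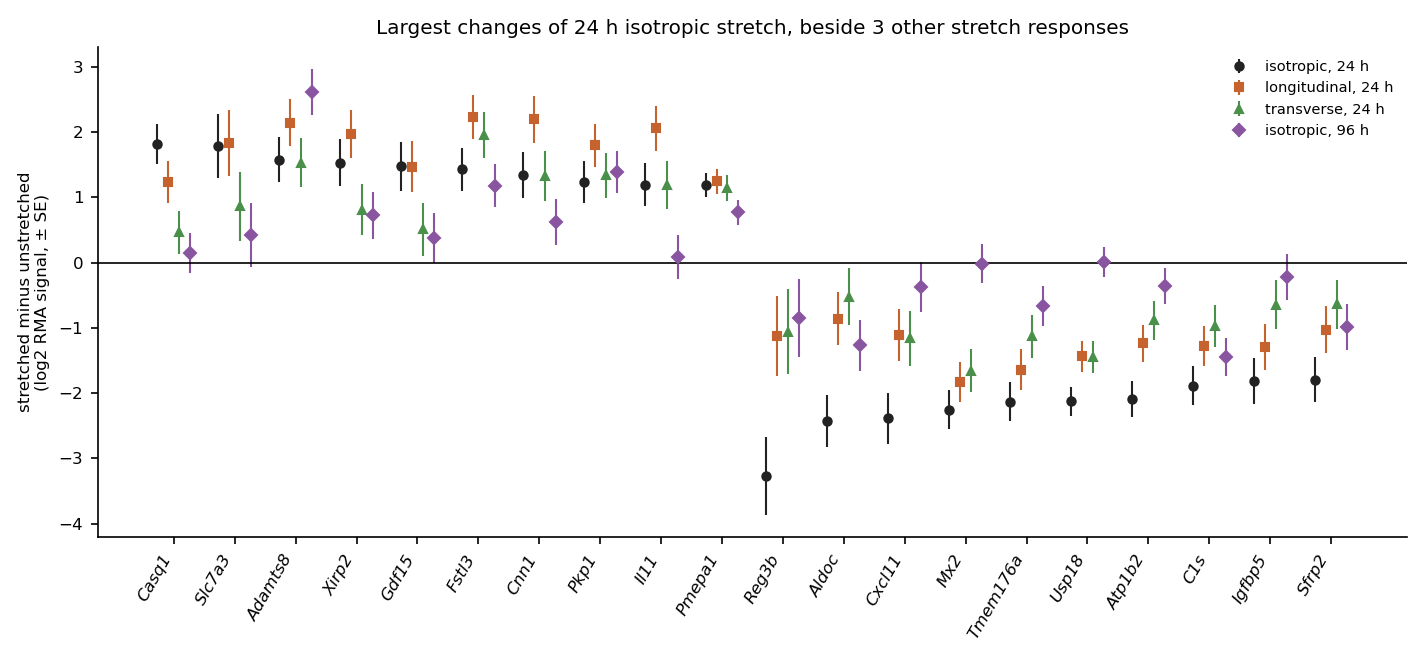
Fitted change of the 20 genes with the largest rises and falls (points, ± SE) with 24 h isotropic stretch, 24 h longitudinal and transverse stretch of aligned tissue and 96 h isotropic stretch, as labelled; the genes were chosen on the first. Pmepa1 lies between 0.77 and 1.25 in all 4, and Mx2 and Usp18 lie near 0 at 96 h (-0.016 and 0.012).

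The other stretch times on the same coating were 6 h and 96 h. At 6 h 1 gene of 18829 passed, Lmod2, with a change of 0.89 at 6 h and 0.58 at 24 h. No gene passed at 6 h with the arrays exchanged, or with any 1 of the 24 h isotropic stretched arrays left out of the fit. As exchanged, 440 genes had an unadjusted p under 0.05 at 6 h, again below a share of 0.05 of all genes. At 96 h 557 genes passed as labelled, of which 118 were also called at 24 h (15.8% of the 746 and 21.2% of the 557), 113 in the same direction. Of the 746 genes 604 (81%) had the same sign at 96 h, beside 60.4% of all genes. The labelled 24 h changes were also set beside the 96 h changes with the arrays exchanged. There 525 of the 746 (70.4%) had the same sign, beside 51.6% of all genes. The 96 h count was 1497 with the arrays exchanged and 1133 with both left out. The 24 h and 96 h responses differed past the threshold for 46 genes (0.244%), 38 more negative and 8 more positive at 24 h. The estimate of this difference is the same when the 2 arrays are exchanged, since both enter it with the same sign, but the spread is smaller, and 170 genes passed, all 46 among them. Leaving out the stretched array of harvest 4 gave 276 genes, leaving out that of harvest 2 gave 15, and leaving out the unstretched array of harvest 1 or 2 gave 19 and 12.

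Among the genes that passed, the 4 largest differences were those of Mx2, Usp18, Atp1b2 and Sema5a. Mx2 changed by -2.25 at 24 h and -0.016 at 96 h, a difference of -2.24 (95% interval -3.10 to -1.38) (adjusted p = 0.0139). Usp18 changed by -2.12 and 0.012, a difference of -2.14 (95% interval -2.79 to -1.49) (0.000546). In the 96 h unstretched array of harvest 1, as labelled and exchanged, signals were 4.75 and 4.63 for Mx2 and 3.78 and 3.89 for Usp18. The lowest log2 signal in the data was 2.666. Whether low signals at 96 h limited the fall that could be seen there was not tested. The interferon-induced genes as a list had a median of -0.14 at 96 h and -0.14 at 6 h, against -0.41 at 24 h. Atp1b2 differed by -1.73 (95% interval -2.52 to -0.95) (adjusted p = 0.0406). Sema5a, a guidance molecule, changed by -0.87 at 24 h and 0.84 at 96 h, in neither case past the threshold alone, and the difference of -1.71 (95% interval -2.50 to -0.92) passed (adjusted p = 0.044). Thbd, Gja5, Fgf13, Cd59b and Dlc1 also differed, by -1.66, -1.35, -0.90, -0.83 and -0.78. Casq1 rose by 1.82 at 24 h and changed by 0.15 at 96 h, a difference of 1.67 (95% interval 0.78 to 2.56) that missed the threshold as labelled (0.0901) and passed exchanged (0.0381). Adamts8 rose at both times, by 1.58 and 2.61, and the difference did not pass (adjusted p = 0.523).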

How the data were processed

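Total RNA from the cultured tissues was measured on 51 Affymetrix arrays, 16 groups in all. The authors deposited RMA log2 signals for 29214 probe sets, made with Affymetrix Expression Console and RMA per the submitters' processing notes; RMA subtracts background, brings all arrays to 1 distribution and sums probes on the log2 scale. Both deposited signal tables were identical. A further table of the authors' log2 fold changes against 0 h and adjusted p-values, for which the notes name limma, served only to check which arrays entered each group. Genome build and RMA version are not given in the sources used here. As arrays give no read depth, their number limits the precision.

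Probe sets with 1 gene symbol were kept (20420, of which 1043 genes had more than 1), 199 more were named through RefSeq accessions, and a gene was represented by its brightest probe set, leaving 18829 genes. limma 3.58.1 in R 4.3.3 fitted group means with harvest as a fixed term to all 51 arrays, with Benjamini-Hochberg adjusted p-values over all genes and a threshold of 0.05; every adjusted p in the text is from it. Differences between responses were contrasts of the same fit. In data simulated from these arrays it recovered 74% of 50 seeded changes of 0.5 on the log2 scale and 92% of 50 of 1, and 7 of its 190 calls were not seeded. The simulation gave each gene 1 spread in all arrays and kept the labels true. Its rates therefore do not cover exchanged arrays or groups of unequal spread, such as those of Il11 (SD 0.24 unstretched and 1.14 stretched). The replicate numbers pair the arrays, since the labels give the harvest of each. Deviations from the group means correlated at 0.234, 0.136 and 0.349 within harvests 1, 2 and 4 as labelled. Between different harvests they correlated at -0.337 to 0.15, the highest being above the value within harvest 2. With the arrays exchanged the values within harvests were 0.258, 0.264 and 0.226, and those between harvests -0.295 to 0.0352. The labels call the arrays biological replicates.

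The comparison, its lists and its tests were chosen with earlier results of these data known. Genes were named by rule: the 10 largest rises and falls with the same sign in each harvest in all 3 arrangements, members of the lists where described, and the largest differences between responses; Lmod2 at 6 h, the genes beside Sema5a that differed at 96 h and some that did not pass were chosen after their values were seen. Promoters came from a RefSeq table of 33469 windows on GRCr8. Alternatives were the exchange and omission of arrays, other block terms, arrays and normalization, a filter on mean signals under 6 and means over probe sets. Some members of the lists are counted but not reported by name here.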

Additional observations from a re-analysis of the deposited data

Results flagged for a closer look

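The response to 24 h of stretch was tested against the response to 96 h on the same isotropic coating, and limma's test of that difference passed for 46 genes. Among the genes named above, the 24 h minus 96 h difference on the log2 scale was -2.24 for Mx2, -2.14 for Usp18, -1.73 for Atp1b2 and -1.71 for Sema5a. It was -1.66 for Thbd, -1.35 for Gja5, -0.898 for Fgf13, -0.834 for Cd59b and -0.778 for Dlc1. Of the 46 genes 29 passed at 24 h and 21 at 96 h, and 26 were farther from 0 at 24 h. All 46 also passed with the 2 arrays exchanged.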

How the results depend on the processing

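The count of 746 genes for 24 h isotropic stretch became 1546 with the 2 arrays exchanged, 1231 with both left out, 342 with no replicate block (no harvest term), 201 with each harvest's 0 h array subtracted and no harvest term, 78 with the 24 h arrays only and 0 with the 6 arrays only, where 1340 genes had an unadjusted p under 0.05. Leaving out 1 array of the comparison at a time gave 268 to 1132 genes, without the unstretched array of harvest 1 and the stretched array of harvest 4 respectively. Repeated quantile normalization (774), the filter on mean signal (707), means over probe sets (749) and harvest as a random block (666) stayed within 1.5 times.

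The 46 genes whose 24 h and 96 h responses differed became 170 with the arrays exchanged, 17 with no replicate block, 5 with 0 h subtracted and 3 with the arrays of the time points compared only. Leaving out 1 array gave 12 to 276. The differences from longitudinal and transverse stretch called 0 genes under every alternative but 1: without the stretched array of harvest 4 they called 8 and 113, the ends of ranges of 0 to 8 and 0 to 113.

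Of the 166 genes named, 145 passed as labelled and 114 in all 3 arrangements, and none that passed changed sign under the alternatives. The pairing by harvest decided 63 of their calls, which were lost with no replicate block. Why the counts moved was not tested, beyond the fewer arrays in the smaller fits. Signal limits the dim genes: the lowest log2 signal was 2.666, and Mx1, Ifit3 and Bst2 stayed under 5.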
